A study of Rattus norvegicus with 2 samples.

Results

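The Gadd45 and Btg/Tob genes encode 2 families of small growth arrest proteins, and 8 of them were followed here: Gadd45a, Gadd45b, Gadd45g, Btg1, Btg2, Btg3, Tob1 and Tob2. They were chosen by family membership, and each was read by 1 target (a set of 5 probes for 1 RefSeq record), so that 8 of the 26419 targets and 8 of the 15577 named genes on the array are described. All 8 targets come from curated records. The RNA came from AR42J cells, a rat line established from a pancreatic tumour and used as a model of acinar cells. One group was given 200 µM taurolithocholic acid 3-sulfate (TLC-S), a bile acid sulfate that serves in experimental work on biliary pancreatitis, for 20 min, and the control group was left without it. Each group had 1 one-colour array.

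Gadd45 proteins have no known enzymatic activity and act by binding others. Among their partners are the kinase Map3k4, which feeds the p38 and JNK pathways, the replication clamp Pcna, the mitotic kinase Cdk1 with cyclin B, and factors of DNA repair and demethylation. Btg and Tob proteins share an amino-terminal domain that binds the deadenylases Cnot7 and Cnot8 of the CCR4-NOT complex, which shortens the poly(A) tails of mRNAs. Gadd45a is known for its induction by DNA damage, and Gadd45b and Btg2 are known as immediate early genes in several cell types.

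With 1 array in each group there is no replicate check: every ratio compares these 2 arrays, no test between groups was possible, and no p-value was computed. The values are RMA intensities on a linear scale. Random-sequence probes gave 40.5 on the TLC-S array and 44.7 on the control array, and an intensity of 100 on both arrays was taken as measured, since every value in the authors' deposited tables of higher and lower targets lies above it. Of all named genes, 10174 were at 100 or more on both arrays. Their median log2 ratio of TLC-S over control was 0.25 and their SD 0.70, and 66.3% of them lay above 0, so a ratio is read against that shift. In TLC-S 10.0% of them were higher by 2-fold or more, and 4.37% were lower by as much. After subtraction of a loess curve fitted to the ratios along signal, which centres them by construction, the shares were 4.59% and 6.91%. As for the cells, of 15 acinar markers with a named target 4 were at 100 or more on both arrays: the trypsinogens Prss1, Prss2 and Prss3 and the transcription factor Bhlha15. The list of 15 summed to 5273 in TLC-S and 30551 in control, a gap that lay mainly in the trypsinogens. Prss3 gave 2183 in TLC-S and 15742 in control, Prss2 gave 856 and 7536, and Prss1 gave 603 and 5337. Bhlha15 differed less, at 1056 in TLC-S and 1227 in control. The amylase Amy2a3, the carboxypeptidase Cpa1 and the acinar factor Ptf1a were under 100 on both arrays. Of 9 pan-leukocyte markers 8 were at 100 or more on both arrays, among them Ptprc (993 in TLC-S and 1175 in control). All 9 summed to 21827 in TLC-S and 24065 in control. All 4 B lineage markers with a named target were at 100 or more on both arrays, with sums of 5296 in TLC-S and 5598 in control. Their part in the results on Gadd45 and Btg/Tob genes was not tested. In such bulk RNA, fewer cells of a type and less RNA per cell cannot be told apart.

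Of the 8 genes, 7 were at 100 or more on both arrays. In this group Gadd45b was 5.34-fold higher in TLC-S, Btg2 was 1.82-fold higher and below the 2-fold limit, and the other 5 lay between a log2 ratio of -0.10 and 0.50. Thus 1 of 7 was at least 2-fold higher, against 10.0% of all genes, and 0 of 7 were at least 2-fold lower, against 4.37%. Above 0 lay 6 of 7, against 66.3% of all genes. The median log2 ratio over the 7 genes was 0.43, beside 0.25 over all genes; after loess subtraction it was 0.23, beside 0.00 (-0.0021) over all genes. Above 0 after loess were 4 of 7, beside 49.8% of all genes.

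The count depended on the limits set. At 1.5-fold, 2 of 7 genes were higher (27.8% of all genes) and 0 lower (9.61%). At 3-fold, Gadd45b was the 1 gene higher (2.12% of all genes), with 0 lower (1.81%). With 200 required on both arrays, Gadd45b and Btg1 were no longer measured, and 0 of the other 5 were 2-fold higher (8.24% of all genes) or lower (3.10%).

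**Figure D1:**
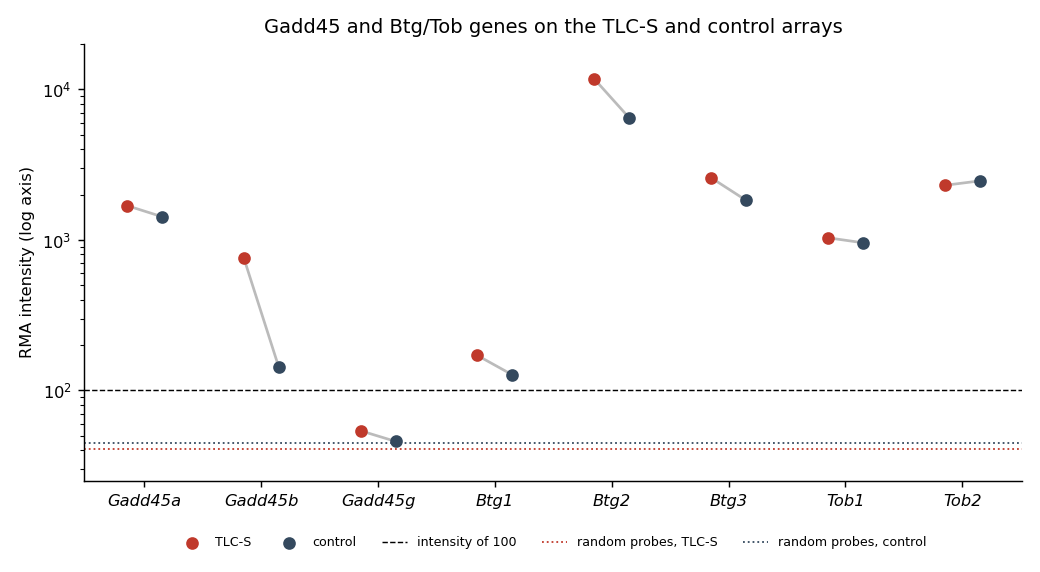
RMA intensity (log axis) of each Gadd45 and Btg/Tob gene on the TLC-S array (red, left) and the control array (dark, right), 1 array each, with the limit of 100 (dashed) and the level of random probes on each array (dotted). Gadd45b stands at 761 in TLC-S and 143 in control, and Gadd45g lies near the random probes on both arrays; heights of different genes rest on different probes and are not comparable.

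Gadd45b, the member of its family best known for induction by stress and by NF-kB, gave an intensity of 761 in TLC-S, against 143 in control. The TLC-S value was 18.8 times that of the random probes on its array and the control value 3.19 times, so the control level lay close to the limit. The log2 ratio was 2.42 as deposited and 2.11 after loess subtraction. Among the 10174 measured genes, 22 had a higher ratio. Genes under 100 on the control array, such as Map2k6 and Cdkn2c, are not in this ranking, however large their rise. With those genes in 10 bins of mean signal, the bin of Gadd45b held 1018 genes, with mean signals of 316 to 436, a median log2 ratio of 0.33 and an SD of 0.79. In that bin 14.1% of genes were at least 2-fold higher, and 9 genes had a ratio above that of Gadd45b. As a gauge of the spread between targets, the ratios of targets of 1 gene varied around the gene's mean with an SD of 0.42 on the log2 scale. This was over 580 genes with 2 or more measured targets, which may share probes. All targets were read on the same 2 arrays, so this SD holds no spread between arrays or cultures. The Gadd45b ratio has no second target to be set beside.

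Gadd45a, the family member best known for induction by DNA damage, gave 1689 in TLC-S and 1425 in control. That is a log2 ratio of 0.25, next to the median of all genes, and 49.9% of genes had a lower one. Its sign depended on the scaling, at -0.04 after loess subtraction. Gadd45g gave 53.9 in TLC-S and 45.8 in control, 1.33 times the random probes in TLC-S and 1.03 times in control. Both values were under 100, so no fold is given and its level was not measurable on these arrays.

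The promoters of the Gadd45 genes are printed because Gadd45b has the highest ratio of the 8 genes and the others are its closest relatives. The sequences are from RefSeq on GRCr8 and run from 250 bases before to 50 bases after the transcript start, on the strand of the gene, which is the minus strand for all 3. Capitals mark matches, on either strand, to the cAMP response element TGACGTCA, the AP-1 site TGANTCA, the E-box CACGTG, the CCAAT box, the GC box GGGCGG, the TATA box TATAAA and the octamer ATTTGCAT. The Gadd45b window is chr7:9430669-9430968, that of Gadd45a chr4:97486750-97487049 and that of Gadd45g chr17:13530302-13530601. The annotated Gadd45b gene runs from 9428689 to 9430991, so its whole window lies inside the gene. That window follows a transcript start within the gene and not the gene's outer end.
Gadd45b: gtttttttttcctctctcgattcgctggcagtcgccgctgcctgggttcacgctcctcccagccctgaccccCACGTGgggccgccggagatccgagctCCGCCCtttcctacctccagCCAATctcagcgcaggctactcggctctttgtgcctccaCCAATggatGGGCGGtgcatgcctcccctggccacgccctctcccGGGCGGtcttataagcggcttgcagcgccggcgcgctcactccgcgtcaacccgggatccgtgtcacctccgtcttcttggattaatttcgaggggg
Gadd45a: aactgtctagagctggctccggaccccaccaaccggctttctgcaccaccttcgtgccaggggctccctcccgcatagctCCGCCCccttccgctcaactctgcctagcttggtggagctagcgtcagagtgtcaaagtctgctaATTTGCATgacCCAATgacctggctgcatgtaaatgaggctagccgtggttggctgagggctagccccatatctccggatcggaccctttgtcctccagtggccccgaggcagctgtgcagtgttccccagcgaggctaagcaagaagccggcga
Gadd45g: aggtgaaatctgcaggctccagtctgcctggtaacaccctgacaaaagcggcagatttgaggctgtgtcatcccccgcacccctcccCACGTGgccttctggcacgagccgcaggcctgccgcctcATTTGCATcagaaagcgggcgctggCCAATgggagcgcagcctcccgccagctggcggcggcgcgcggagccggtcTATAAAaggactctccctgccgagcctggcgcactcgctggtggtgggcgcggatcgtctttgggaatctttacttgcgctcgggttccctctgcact

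In the Gadd45b window the E-box began 178 bases before the transcript start used, which lies within the annotated gene. CCAAT boxes began at 131 and 92 bases before that start, and GC boxes at 151, 83 and 47 bases. The Gadd45g window also held an E-box, 163 bases before the start, and an octamer at 124 bases, a CCAAT box at 99 bases and a TATA box at 48 bases. The Gadd45a window held an octamer at 105 bases, a CCAAT box at 94 bases and a GC box at 170 bases. Of 33469 RefSeq promoter windows of the same length, 6.42% held the E-box, 1.78% the octamer, 37.5% the CCAAT box, 33.1% the GC box and 14.2% the TATA box. These are matches of letters and not binding sites. The E-box was common to Gadd45b and Gadd45g, and the octamer to Gadd45a and Gadd45g.

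Btg2, an antiproliferative gene named for its induction by nerve growth factor in rat cells, gave 11723 in TLC-S, against 6453 in control. This 1.82-fold difference, a log2 ratio of 0.86, was below 2-fold but past 1.5-fold, a limit that 27.8% of all genes passed upward. In its bin of 1018 genes, with mean signals of 5188 to 59940, the SD was 0.53, the median 0.07 and 3.63% of genes were at least 2-fold higher, and 68 genes had a ratio above that of Btg2. Over all 10174 genes, 85.5% had a lower ratio. The Gadd45b log2 ratio lay 2.09 above the median of its own signal bin, whose SD was 0.79. The Btg2 ratio lay 0.79 above the median of its bin, whose SD was 0.53. The share of all genes that depart from their bin's median by more than its SD was not computed, so these distances are given as a description.

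The Btg2 promoter, at chr13:48087641-48087940 on the minus strand of GRCr8, is shown with the same motifs in capitals because Btg2 had the next highest ratio after Gadd45b.
Btg2: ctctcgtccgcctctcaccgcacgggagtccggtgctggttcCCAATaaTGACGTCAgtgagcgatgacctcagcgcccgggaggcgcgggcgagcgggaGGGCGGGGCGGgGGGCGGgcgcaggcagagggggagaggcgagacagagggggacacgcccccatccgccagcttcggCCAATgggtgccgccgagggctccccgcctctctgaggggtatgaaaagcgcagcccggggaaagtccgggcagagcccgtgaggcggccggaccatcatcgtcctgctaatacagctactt
It was the one window among the 8 genes that held the full cAMP response element, 201 bases before the start, a motif that 1.83% of all windows held. It had CCAAT boxes at 208 and 72 bases and GC boxes at 150, 145 and 138 bases, the first 2 of which overlap by 1 base. The AP-1 site, which 7.33% of all windows held, was not among the letters of any of the 8 windows.

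Btg1 and Btg3, the other Btg genes, differed less. Btg1, a close relative of Btg2 named for a translocation in B cell leukaemia in human, gave 171 in TLC-S and 127 in control, 4.21 times the random probes in TLC-S and 2.83 times in control. Its log2 ratio was 0.43, which lay 0.39 above the median of its bin, whose SD was 0.50. That bin held mean signals of 102 to 164, and the limit of 100 on both arrays caps the ratios in it and so narrows the SD. Btg3 gave 2585 in TLC-S and 1829 in control, a log2 ratio of 0.50, 0.22 above the median of its bin, whose SD was 0.67. Both stayed above 0 after loess subtraction, at 0.26 for Btg1 and 0.23 for Btg3, and neither passed 1.5-fold.

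Tob1 and Tob2, which also carry a motif for the poly(A) binding protein, had the smallest log2 ratios of the 7 genes as deposited; after loess subtraction Gadd45a, at -0.04, was nearer to 0 than either. Tob1 gave 1032 in TLC-S and 956 in control, a log2 ratio of 0.11 as deposited and -0.20 after loess subtraction, so that its sign depended on the scaling. Tob2 gave 2302 in TLC-S and 2463 in control, a log2 ratio of -0.10 as deposited and -0.36 after loess subtraction. It was the one gene of the 7 that was lower in TLC-S before loess, by 1.07-fold. The distances from the medians of their signal bins, -0.21 for Tob1 and -0.35 for Tob2, were smaller than the SDs of those bins, 0.66 and 0.61.

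**Figure D2:**
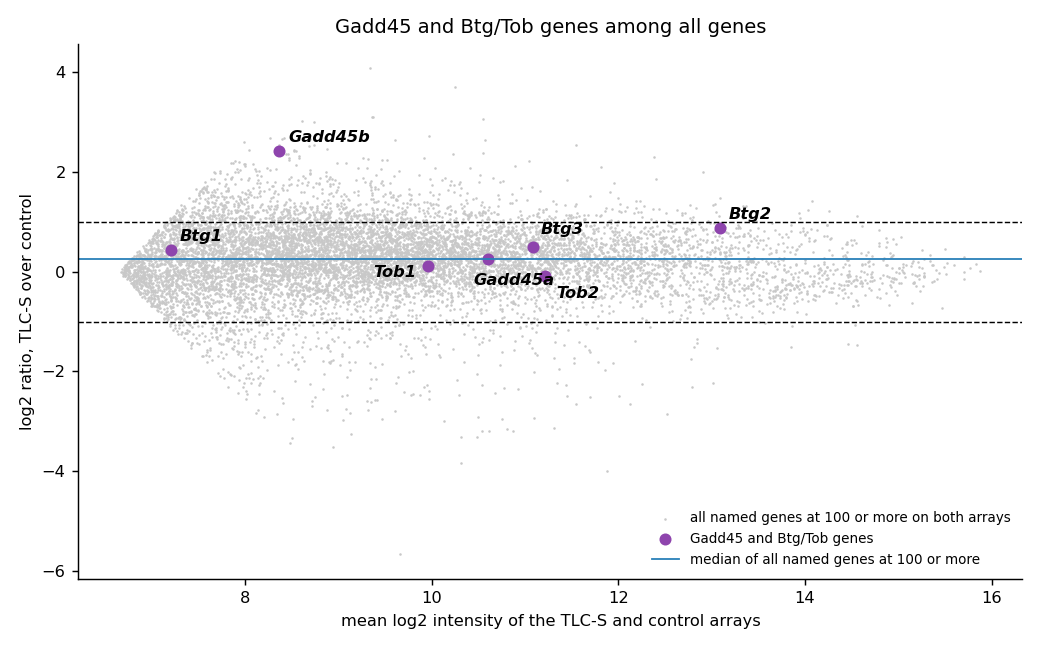
Log2 ratio of TLC-S over control against the mean log2 intensity of both arrays, for the 10174 named genes at 100 or more on both arrays (grey) and the 7 Gadd45 and Btg/Tob genes among them (purple), with 2-fold limits (dashed) and the median of all genes (blue, 0.25). Gadd45b, at 2.42, lies at the upper edge of the cloud for its signal, Btg2, at 0.86, is just under the 2-fold line among bright genes, and the other 5 lie within the body of the cloud.

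**Figure D3:**
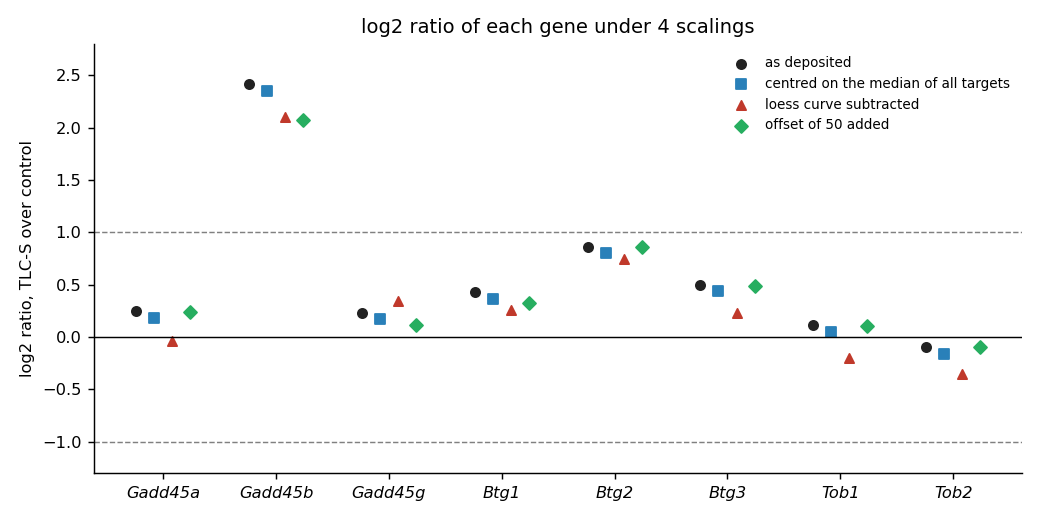
Log2 ratio of TLC-S over control for each of the 8 genes as deposited, after centring on the median of all targets, after loess subtraction and with an offset of 50 added to both intensities, with 2-fold limits dashed. Gadd45b stays between 2.07 and 2.42 and Btg2 between 0.74 and 0.86, whereas Gadd45a and Tob1 cross 0 after loess subtraction; Gadd45g was under 100 on both arrays.

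Some relatives outside the 8 genes were also on the array. Btg1b, a paralogue of Btg1, gave 295 in TLC-S and 181 in control (1.63-fold higher), and Btg1c gave 246 in TLC-S and 200 in control (1.23-fold higher). Whether probes of these paralogues and of Btg1 share targets was not tested. Btg4, known as an oocyte gene in mouse, gave 84.0 in TLC-S and 160 in control, at least 1.60-fold lower against the limit of 100. Gadd45gip1, whose product binds Gadd45 proteins and the mitochondrial ribosome, gave 346 in TLC-S and 667 in control, 1.93-fold lower, from a predicted record.

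The genes whose pair of intensities was nearest to that of Gadd45b, among named genes other than predicted loci and chemoreceptors, were Kif22, a chromosome-binding kinesin, Spc24, a kinetochore component, and Rfwd3, a ubiquitin ligase of DNA repair. Kif22 gave 743 in TLC-S and 149 in control, Spc24 gave 792 in TLC-S and 136 in control, and Rfwd3 gave 778 in TLC-S and 153 in control. The distances from Gadd45b, over 2 arrays and on the log2 scale, were 0.068, 0.086 and 0.108. They describe likeness of probe brightness on these arrays and nothing else.

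Among the kinases on the Gadd45 pathway, Map3k4, the kinase that Gadd45 proteins bind and activate, gave 2819 in TLC-S and 3021 in control, a log2 ratio of -0.10, and its dimmer target gave -0.06. Of 12 kinases of this list with a named target 10 reached 100 on both arrays, and 3 of these passed 2-fold upward and 0 downward, beside backgrounds of 10.0% and 4.37%. Mapk8, which encodes a JNK kinase, was 2.79-fold higher (324 in TLC-S and 116 in control), with a second target at a log2 ratio of 1.01, Mapk14, the p38 alpha kinase, was 2.21-fold higher, and Map2k4, which activates JNK, was 2.04-fold higher. After loess subtraction 1 of the 10 was at least 2-fold higher, Mapk8, beside 4.59% of all genes. Map2k6, which activates p38 and was named after its values were seen, gave 553 in TLC-S and 90.3 in control, at least 5.53-fold higher. The list's median was 0.30, beside 0.25 for all genes.

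Of the 12 cell cycle and DNA repair or demethylation partners of Gadd45 with a named target, all at 100 or more on both arrays, 2 passed 2-fold upward and 1 downward, beside 10.0% and 4.37% of all genes. The higher ones were the subunits of the mitotic kinase that Gadd45 proteins inhibit. Ccnb1 gave 3807 in TLC-S and 610 in control (6.24-fold higher), and Cdk1 gave 1605 in TLC-S and 400 in control (4.01-fold higher). Pcna gave 7605 in TLC-S and 4946 in control, 1.54-fold higher. The methylcytosine dioxygenase Tet3 was 2.20-fold lower, at 354 in TLC-S and 779 in control. The median over the list was 0.41, beside 0.25 for all genes.

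The deadenylation machinery through which Btg and Tob proteins act was measured in full: all 18 genes of the list for CCR4-NOT, the PAN deadenylase, Parn and poly(A) binding proteins reached 100 on both arrays, and 0 of them passed 2-fold in either direction, against 10.0% higher and 4.37% lower among all genes. The 18 genes were bright, with median intensities of 2629 in TLC-S and 1843 in control. Among all measured genes with mean signals of 1338 to 2269, 6.98% were higher and 4.52% lower. With mean signals of 2269 to 5182 the shares were 6.19% and 3.05%. The list's median log2 ratio was 0.51, beside 0.25, and 0.28 after loess subtraction. Of the 18 genes, 13 lay above the median of all genes and 7 were higher by 1.5-fold or more, beside 27.8%. Cnot8, one of the catalytic subunits that Btg and Tob proteins bind, gave 2887 in TLC-S and 1715 in control, 1.68-fold higher. For Cnot7, the other one, the brighter target gave 668 in TLC-S and 651 in control, a log2 ratio of 0.04. The dimmer target gave 0.61, so the Cnot7 ratio depended on the target. The catalytic subunits Cnot6 and Cnot6l had log2 ratios of 0.31 and 0.00 (-0.0010), and Cnot9, another subunit of CCR4-NOT, was highest in the list at 1.88-fold.

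Of the 9 other interaction partners of Btg and Tob proteins at 100 or more on both arrays, 3 passed 2-fold upward and 0 downward, beside 10.0% and 4.37% of all genes. They were the signal transducers Smad5 (2.37-fold) and Smad2 (2.22-fold) and the RNA-binding protein Cpeb3 (2.19-fold). After loess subtraction 0 of the 9 passed 2-fold in either direction, beside 4.59% of all genes higher and 6.91% lower, so this count depends on the scaling. The list's median was 0.57, beside 0.25 for all genes, and 0.25 after loess subtraction. Among 12 measured decay factors of AU-rich and Pumilio target mRNAs, 1 passed 2-fold upward and 0 downward, beside 10.0% and 4.37%, so the share is near that of all genes. The gene was Zfp36, tristetraprolin, an immediate early gene whose product recruits the same deadenylase, at 901 in TLC-S and 241 in control (3.75-fold higher). Its relative Zfp36l2 had a log2 ratio of -0.03 at its brighter target, with 1178 in TLC-S and 1204 in control. The dimmer Zfp36l2 target gave 107 in TLC-S and 94.4 in control, under the limit. The list had a median of 0.26.

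The authors' deposited pathway table lists Gadd45b under Cell cycle, its first term, with 36 of 125 genes and a Fisher p-value of 4.42e-17 computed by the authors over genes. The authors' deposited table of biological processes lists Gadd45b under 35 of 468 terms, among them negative regulation of protein kinase activity with 8 of 73 genes and a p-value of 0.0313 computed by the authors, and the other 7 genes under 0. Both sets of terms were scored over genes past 2-fold. Gadd45b alone of the family genes passed that limit, so the absence of the other 7 follows from it.

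**Figure D4:**
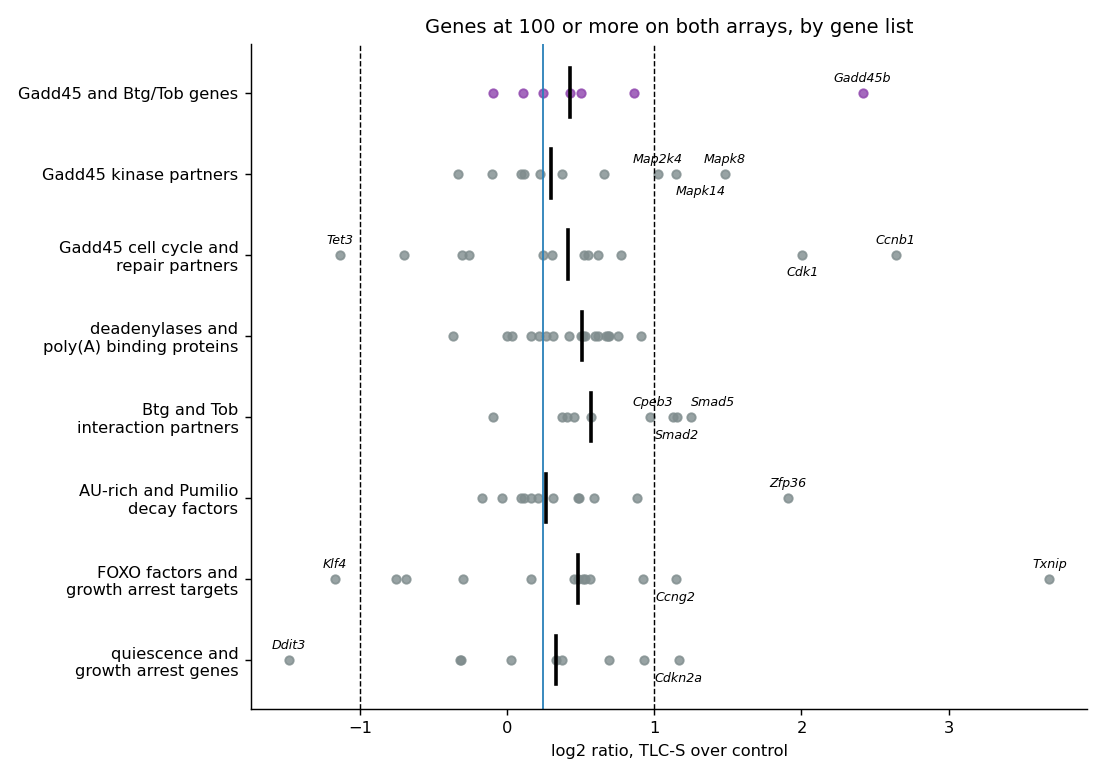
Log2 ratio of TLC-S over control for genes at 100 or more on both arrays, 1 point a gene, in the Gadd45 and Btg/Tob families (purple) and in 7 gene lists (grey), with the median of each list (black bar), the median of all genes (blue line, 0.25) and 2-fold limits (dashed). Genes past 2-fold are named. The 18 deadenylation genes lie between -0.37 and 0.91 and 0 of them passes 2-fold, beside 10.0% higher and 4.37% lower among all genes.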

How the data were processed

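Double-stranded cDNA made from total RNA carried a single dye, Cy3, and was read on NimbleGen arrays, per the labels' protocols. The authors deposited an RMA intensity for each target and array; the submitters' processing notes name RMA but no version of it, and which genome build the targets follow was not stated. The fold (a ratio) and its log2 in the authors' up and down tables, and the p-value of each term in their GO and pathway tables, are as deposited, per the file headers.

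Targets were named through the RefSeq accession (9747 targets), a gene ID (4950) or the authors' symbol (1644), with the GRCr8 gene table used for names; 10078 stayed unnamed. A gene with several targets took the one with the highest mean log2 intensity. Ratios are written as TLC-S over control, in log2. With 1 array per group the number of arrays limits the precision and no test was run. A gene under 100 on 1 array is given as a bound against 100.

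The members, the 7 gene lists and the naming rule were chosen with earlier results of these data known, and the promoter motifs with the sequences in view. Named genes are all 8 members, Btg4, up to 4 genes past 2-fold of each list at 100 or more on both arrays (the top 2 where none passed), Cnot6, Cnot6l, Cnot7, Cnot8, Map3k4 and Pcna, and the 3 genes nearest to the member with the largest ratio; Map2k6, Zfp36l2, Foxo1 and Foxo3, Dusp1, Cdkn2c, Btg1b, Btg1c and Gadd45gip1 were named after their values were seen. An eighth list and its genes are not reported here. Alternatives were median centring, loess (span 0.3, 3 robust iterations), an offset of 50, the mean or dimmest target, a limit of 200 or none, the series values, the authors' table, and 1.5-fold and 3-fold thresholds. The ratio and loess steps were tested on simulated data. Python 3.11.15, numpy 2.4.6, pandas 2.3.3, statsmodels 0.14.6 and matplotlib 3.10.9 were used.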

Additional observations from a re-analysis of the deposited data

How the results depend on the processing

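No paired analysis was possible because TLC-S and control were read once each, and no replicate could be left out. Of 11 alternative settings, 2 moved the count of Gadd45 and Btg/Tob genes at least 2-fold higher, which was 1. A limit of 200 on both arrays gave 0, by construction, since the control value of Gadd45b is under 200 (8.24% of all genes at 200 or more were at least 2-fold higher), and a threshold of 1.5-fold gave 2, Gadd45b and Btg2. The count at least 2-fold lower was 0 in all settings. Gadd45b ran from 2.07 with the offset to 2.42 as deposited. Gadd45a and Tob1 changed sign after loess subtraction alone, by less than the SD of 0.42 of targets around their gene's mean. As each gene has 1 target, the choice of target repeats its value, as do the series values and the authors' table to rounding. For the gene lists, whose alternatives were added after the data were seen, 23 of 217 values moved, among them the count of higher Btg and Tob interaction partners, which was 3 and became 0 after loess subtraction and 1 with the offset. Gadd45g lay near the random probes and the control levels of Gadd45b and Btg1 lay at 3.19 and 2.83 times them, which limits what their ratios show.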

Other observations

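Other growth arrest genes were read on the same arrays. Of 13 measured genes for FOXO factors and their growth arrest targets, 2 passed 2-fold upward and 1 downward, beside 10.0% and 4.37% of all genes. Txnip, an inhibitor of thioredoxin, gave 4360 in TLC-S and 339 in control (12.9-fold higher), and Ccng2, an atypical cyclin linked to cell cycle exit, gave 1035 in TLC-S and 468 in control (2.21-fold higher, and under 2-fold after loess subtraction). Klf4, a zinc finger factor, gave 163 in TLC-S and 366 in control (2.25-fold lower). The factors themselves were lower but under 2-fold, Foxo1 at 972 in TLC-S and 1637 in control and Foxo3 at 105 in TLC-S and 169 in control. After loess subtraction Foxo1 passed 2-fold, at a log2 ratio of -1.05.

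Of 9 measured genes linked to quiescence and growth arrest, 1 passed 2-fold upward and 1 downward, beside 10.0% and 4.37% of all genes. After loess subtraction 0 passed it upward and 1 downward, beside 4.59% and 6.91% of all genes. Cdkn2a, an inhibitor of the G1 kinases, gave 4492 in TLC-S and 2003 in control (2.24-fold higher, and under 2-fold after loess subtraction). Ddit3, the stress factor also known as Gadd153 for its discovery with the Gadd45 genes, gave 1908 in TLC-S and 5329 in control (2.79-fold lower), the opposite direction to Gadd45b. For 2 genes the control array was under 100: Cdkn2c was at least 4.43-fold higher, and Dusp1, an immediate early phosphatase of MAP kinases, at least 2.03-fold higher.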
